A study of Homo sapiens with 4 samples.

Results

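The machinery of RNA interference and microRNA processing was described across HCT116 clones that differ in the expression of an RNA hairpin. Its members were the 10 genes DICER1, EIF2C1, EIF2C2, EIF2C3, EIF2C4, RNASEN, DGCR8, XPO5, TARBP2 and TNRC6A, of 31033 gene names on the array. The rule took them by name and used no measured value, though earlier results of these data were known when it was set. They had 17 probes of the 50238 probes that are not controls. The array carries older names, and EIF2C1 to EIF2C4 are now called AGO1 to AGO4 and RNASEN is now called DROSHA.

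HCT116 is an established human colorectal carcinoma cell line. The vector control (vec) is a stable clone that carries the empty plasmid, and the PKP3 knockdown clone (shpkp3-2) carries a plasmid that expresses a short hairpin RNA against the desmosomal gene PKP3 (plakophilin 3). Both were grown in IMDM, and the labels name selection with 5 μg/ml puromycin, whereas the study's methods name blasticidin. Each condition was 1 clone, measured on 2 arrays whose RNA was collected on 2 occasions, with vec 1 and shpkp3-2 1 on one occasion and vec 2 and shpkp3-2 2 on the other. P-values therefore measure the spread between collections of 1 clone, and a property of a clone cannot be told apart from the effect of the hairpin. The 4 arrays were on 1 slide, where each clone held adjacent positions, so position and clone cannot be told apart either.

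In cells, RNASEN (Drosha), an RNase III enzyme, and its RNA-binding partner DGCR8 cut hairpins out of primary microRNA transcripts in the nucleus. Exportin 5, the product of XPO5, carries these precursors to the cytoplasm, where the RNase III enzyme DICER1 and its partner TARBP2 trim them to duplexes. The Argonaute proteins (EIF2C1 to EIF2C4) hold the guide strand, and TNRC6A (GW182) links them to the enzymes that shorten and uncap messenger RNA. A short hairpin made from a plasmid resembles a microRNA precursor and enters the same pathway, usually at the export step, so its silencing depends on several of these proteins. The promoter that drives the PKP3 hairpin is not given in the sources used here.

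Most results turn on single probes, so the first 30 of the 60 bases of 6 of them are shown, 5′ to 3′ as the deposited files give them. They are the pairs of DGCR8 and DICER1 probes, whose members gave different fold changes, and the probes of XPO5 and TNRC6A, which had the lowest fold changes. The longest run of bases that both probes of a gene share is 5 for DGCR8 and 6 for DICER1, so each probe reads a different stretch of its transcript.
DGCR8 probe 1: atgttggcctgtgggccgcccacaacatat
DGCR8 probe 2: agcaggcgggttcacggctaaagcaatcgt
DICER1 probe 1: agacagtctggcaggtgtactatcccatga
DICER1 probe 2: cggtcgctgttgcacctgatagtaagggac
XPO5: ttcacatcacaacctgtactgtgagtccat
TNRC6A probe 1: cgtgcgctctctactatgccttgatgttgc

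On the 4 arrays, between 60.5% and 63.5% of the spots that are not controls were well above background by the flag of the scanner software, and no spot was saturated. PKP3 itself gave intensities of 20850 and 22840 in vec and of 3414 and 3078 in shpkp3-2, 17.2% of the vec level, with a log2 fold change of -2.54 (SE 0.23, adjusted p = 0.0188 by limma). Of 12 epithelial marker genes, 10 passed the background flag on every array, and of 12 markers of fibroblasts, blood and endothelial cells 7 passed it on none, among them PTPRC, COL1A2, DCN and PECAM1. The summed intensity of the markers of other cells came to 1008 and 583 in vec against 894 and 964 in shpkp3-2, and CD68, a lysosomal gene of macrophages, was higher in shpkp3-2 (log2 fold change 1.43, adjusted p = 0.0459 by limma). Its adjusted p ranged from 0.0015 to 0.345 over the alternatives and was 0.155 and 0.159 without either shpkp3-2 array. No epithelial marker passed the adjusted threshold, but 4 of 15 of their probes tested were higher in shpkp3-2 at an unadjusted p under 0.05 (26.7%, against 7.35% of all probes tested). These 4 were probes of claudins, CLDN7 at 0.98, CLDN4 at 0.96 and CLDN3 at 1.24 and 0.77. The adjusted p for CLDN7 was 0.0445 with the RNA collection as a block, 0.0474 with normexp background correction and from 0.0666 to 0.67 under the other alternatives. For the CLDN3 probe at 1.24 it was 0.00704 with the block, 0.0229 with normexp, 0.0345 with a trended robust prior and from 0.0626 to 0.474 under the others. The part of these markers in the results below was not tested.

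The whole machinery was detected in both clones. Each of the 10 genes had at least 1 probe well above background on all 4 arrays, 13 probes in all, and these 13 were tested among 30512 probes. None of the 13 passed the adjusted p threshold of 0.05 in limma (0 of 13, against 0.39% of all probes tested, 0.246% higher and 0.144% lower), and their adjusted p ranged from 0.182 to 0.911. At an unadjusted p under 0.05 there were 3 of 13 (23.1%, against 12.3% of all probes tested). These were DGCR8 probe 2 and DICER1 probe 2, both higher in shpkp3-2 (2 of 13, against 7.35%), and TNRC6A probe 1, lower in shpkp3-2 (1 of 13, against 4.98%). The 13 probes had a median log2 fold change of 0.08, beside 0.05 over all probes tested, and ranged from -0.60 to 0.84. No probe reached a 2-fold difference on each shpkp3-2 array against the vec mean (0 of 13, against 1.74%, 1.12% higher and 0.623% lower).

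A fold change that misses the threshold does not show equal levels, so the 95% interval of each was read as well. It lay within 2-fold in either direction for 10 of 13 probes (76.9%, against 77.5% of all probes tested), and the other 3 were the 3 probes with an unadjusted p under 0.05. The arrays of the clones did not overlap for 7 of 13 probes (53.8%, against 45.2%), with shpkp3-2 higher for 3 (against 27.2%) and lower for 4 (against 18%). With 2 arrays against 2, an exact permutation test cannot give a two-sided p below 0.333. Each array holds RNA of a whole culture, so fewer expressing cells and less RNA per cell cannot be told apart.

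**Figure D1:**
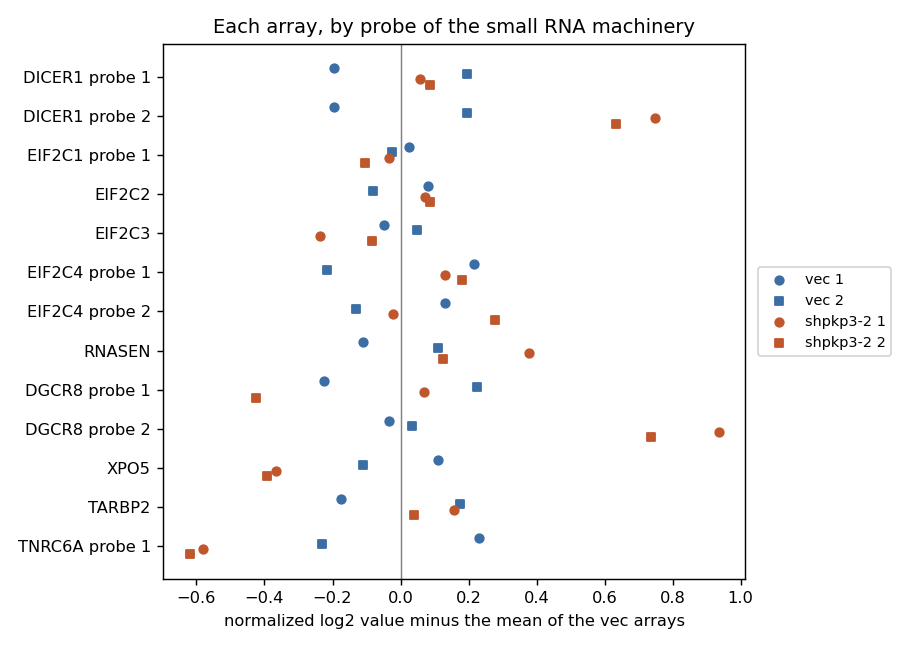
Log2 intensity of each probe tested, relative to the vec mean of that probe (x axis, log2 scale), for the 4 arrays. Points are single arrays, vec and shpkp3-2 in different colors and collections 1 and 2 in different symbols. DICER1 probe 2, RNASEN and DGCR8 probe 2 had both shpkp3-2 arrays above both vec arrays. EIF2C1 probe 1, EIF2C3, XPO5 and TNRC6A probe 1 had both below. These are 7 of 13 probes (53.8%, against 45.2% of all probes tested).

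The nuclear step was read by RNASEN and DGCR8. RNASEN, the enzyme that makes the first cut, gave intensities of 5450 and 4862 in vec and of 5814 and 4818 in shpkp3-2. After scaling to the 75th percentile of each array, its log2 values were 3.45 and 3.67 in vec against 3.94 and 3.69 in shpkp3-2, so both shpkp3-2 arrays were above both vec arrays, though vec 2 and shpkp3-2 2 were nearly equal. The log2 fold change was 0.25 (SE 0.20, 95% interval -0.23 to 0.73, adjusted p = 0.632 by limma). Within collections the log2 difference was 0.49 in the first and 0.013 in the second.

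DGCR8, which anchors the primary transcript for the cut, gave different values with its 2 probes. The brighter probe, DGCR8 probe 1, had intensities of 916 and 957 in vec and of 854 and 599 in shpkp3-2. The clones overlapped, and the log2 fold change was -0.18 (SE 0.26, 95% interval -0.81 to 0.46, adjusted p = 0.807 by limma), with log2 differences of 0.30 in the first collection and -0.65 in the second. The dimmer probe, DGCR8 probe 2, had intensities of 171 and 137 in vec and of 254 and 218 in shpkp3-2, and log2 values of -1.55 and -1.48 in vec and of -0.58 and -0.78 in shpkp3-2. Both shpkp3-2 arrays were above both vec arrays, at 179% of the vec level. Its log2 fold change of 0.84 (SE 0.18, 95% interval 0.39 to 1.28) was the highest among the 13 probes, with an unadjusted p of 0.00366 and an adjusted p of 0.182 in limma, and the log2 difference was 0.97 in the first collection and 0.70 in the second.

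The difference between both probes on one array does not depend on a shift of the whole array. DGCR8 probe 2 minus DGCR8 probe 1 was -2.43 and -2.81 on the log2 scale in vec against -1.75 and -1.45 in shpkp3-2, a change of 1.01. This gap restates the difference between the fold changes of the probes array by array and has no test, and it does not say which probe follows the gene. The probe files do not place either probe on an exon, and the position of the probes in the transcript was not analysed here.

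The DGCR8 transcript is known to hold hairpins of its own that Drosha and DGCR8 cut. RefSeq (GRCh38.p14) places 2 microRNA genes on the same strand within DGCR8 on chromosome 22, and their mature sequences are shown with the seed, bases 2 to 8, in capitals. The 3 seeds all differ.
miR-3618, chr22:20085797-20085818, plus strand: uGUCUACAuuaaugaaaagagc
miR-1306-5p, chr22:20086072-20086093, plus strand: cCACCUCCccugcaaacgucca
miR-1306-3p, chr22:20086112-20086129, plus strand: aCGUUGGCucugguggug
No probe used here measures a mature microRNA, so nothing is reported on their levels.

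The export step was read by a single XPO5 probe, listed under NM_020750. Its intensities were 606 and 397 in vec against 330.4 and 321 in shpkp3-2. The scaled log2 values were 0.28 and 0.06 in vec against -0.20 and -0.22 in shpkp3-2, so both shpkp3-2 arrays were below both vec arrays and close to each other. The log2 fold change was -0.38 (SE 0.18, 95% interval -0.83 to 0.07), or 76.9% of the vec level, with an unadjusted p of 0.0828 and an adjusted p of 0.472 in limma. The log2 difference had the same direction in both collections, -0.48 in the first and -0.28 in the second.

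The cytoplasmic cut was read by 2 probes of DICER1 and 1 of TARBP2. DICER1 probe 1, the brighter one, had intensities of 307.7 and 308.2 in vec and of 278.2 and 280.4 in shpkp3-2. Its scaled log2 values were -0.70 and -0.31 in vec against -0.45 and -0.42 in shpkp3-2, with both shpkp3-2 arrays between the vec arrays. The log2 fold change was 0.07 (SE 0.20, 95% interval -0.43 to 0.57, adjusted p = 0.911 by limma).

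DICER1 probe 2, listed under the same transcript (NM_177438), had intensities of 190.0 and 190.3 in vec and of 277.7 and 253.1 in shpkp3-2. Its log2 values were -1.39 and -1.0 in vec against -0.45 and -0.56 in shpkp3-2, with no overlap, at 161% of the vec level. The log2 fold change was 0.69 (SE 0.21, 95% interval 0.18 to 1.20), with an unadjusted p of 0.0158 and an adjusted p of 0.293 in limma. Its log2 difference was 0.94 in the first collection and 0.44 in the second. The gap of DICER1 probe 2 to DICER1 probe 1 within an array was -0.70 on each vec array, against -0.0024 and -0.15 in shpkp3-2, a change of 0.62, likewise a description with no test. As for DGCR8, the dimmer probe of the pair was the one with the higher log2 fold change. For EIF2C4, the brighter probe had 0.16 and the dimmer one 0.13. DICER1 also hosts a microRNA gene on its own strand, and its 5p arm is shown in the same way as those of DGCR8.
miR-3173-5p, chr14:95137961-95137982, minus strand: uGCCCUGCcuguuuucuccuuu

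TARBP2, the double-stranded RNA-binding partner of DICER1, had intensities of 1553 and 1516 in vec and of 1486 and 1352 in shpkp3-2. The scaled log2 values were 1.64 and 1.99 in vec against 1.97 and 1.85 in shpkp3-2, and both shpkp3-2 arrays lay between the vec arrays. The log2 fold change was 0.10 (SE 0.20, 95% interval -0.40 to 0.59, adjusted p = 0.871 by limma). PRKRA (PACT), a related partner of DICER1, was higher by 0.03 (log2; adjusted p = 0.963 by limma).

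**Figure D2:**
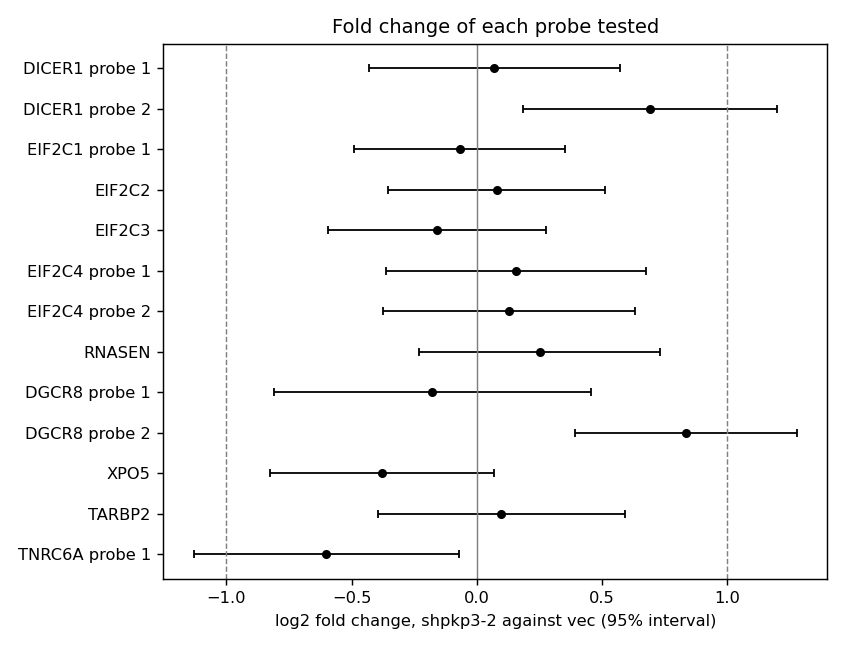
Log2 fold change of shpkp3-2 against vec for the 13 probes tested (x axis), with bars for the 95% interval of limma and dashed lines at 2-fold in either direction. The intervals of DICER1 probe 2, DGCR8 probe 2 and TNRC6A probe 1 do not cross 0 and reach past 2-fold, and the other 10 lie within 2-fold.

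The Argonautes had the narrowest range of the steps with several genes. Their 5 probes tested had log2 fold changes between -0.16 and 0.16. The 95% intervals, from -0.60 at the lowest to 0.67 at the highest, lay within 2-fold for 5 of 5 (against 77.5% of all probes tested). EIF2C2 (AGO2), the Argonaute best known for cutting its target, had intensities of 2543 and 1738 in vec and of 1921 and 1915 in shpkp3-2. Its log2 values were 2.35 and 2.19 in vec against 2.34 and 2.36 in shpkp3-2, which overlapped, and its log2 fold change was 0.08 (SE 0.18, 95% interval -0.35 to 0.51, adjusted p = 0.882 by limma).

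EIF2C1 probe 1 had log2 values of 2.08 and 2.03 in vec and of 2.02 and 1.95 in shpkp3-2, a log2 fold change of -0.07 (95% interval -0.49 to 0.35). EIF2C3, read by 1 probe, had intensities of 865 and 706 in vec and of 577 and 633 in shpkp3-2, and a log2 fold change of -0.16 (95% interval -0.60 to 0.28). For both, the shpkp3-2 arrays were below the vec arrays by less than the SE of the difference. EIF2C4 had 2 probes tested, and they gave similar values, with log2 fold changes of 0.16 (95% interval -0.36 to 0.67) and 0.13 (95% interval -0.37 to 0.63). Both EIF2C4 probes were negative in the first collection (-0.09 and -0.15) and positive in the second (0.40 and 0.41), and the gap between them changed by -0.03.

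TNRC6A, the scaffold that binds Argonautes through its GW repeats, had the lowest fold change. TNRC6A probe 1 had intensities of 502 and 279 in vec and of 217 and 209 in shpkp3-2, and scaled log2 values of 0.01 and -0.45 in vec and of -0.80 and -0.84 in shpkp3-2. Both shpkp3-2 arrays were below both vec arrays, at 66.0% of the vec level, but vec 1 and vec 2 were farther apart than vec 2 and shpkp3-2. The log2 fold change was -0.60 (SE 0.22, 95% interval -1.13 to -0.07), with an unadjusted p of 0.0324 and an adjusted p of 0.361 in limma. It was -0.37 without vec 1 and -0.83 without vec 2.

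Of the 17 probes, 4 were not tested. EIF2C4 probe 3 and TNRC6A probes 2 and 3 were well above background on no array, with intensities between 1.71 and 5.27. EIF2C1 probe 2 was well above background on vec 1 and shpkp3-2 2 only, with intensities of 16.1 and 8.98 in vec and of 10.3 and 10.9 in shpkp3-2. The TNRC6A result therefore rests on 1 probe, as do those of EIF2C1, EIF2C2, EIF2C3, RNASEN, XPO5 and TARBP2.

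The collections gave the same direction for 7 of 13 probes (55.1% of all probes tested did so). These 7 were EIF2C1 probe 1, EIF2C3, RNASEN, XPO5, TNRC6A probe 1, DICER1 probe 2 and DGCR8 probe 2, and for the last 4 of them the difference was at least 0.28 on the log2 scale in both collections. The other 6, among them both EIF2C4 probes, DGCR8 probe 1 and TARBP2, had opposite signs in the 2 collections.

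**Figure D3:**
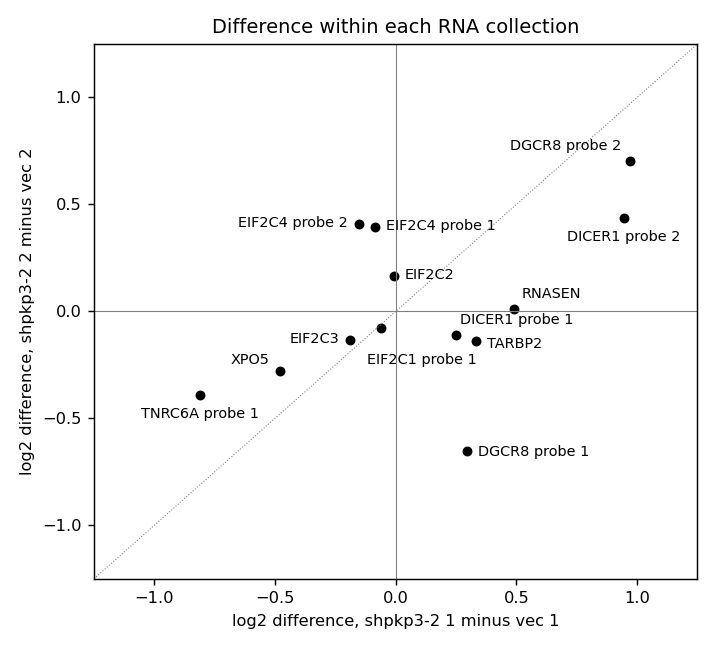
Log2 difference of shpkp3-2 minus vec in the second RNA collection (y axis) against that in the first (x axis), 1 point per probe tested, with a dotted line of equality. DGCR8 probe 2 and DICER1 probe 2 lie in the upper right, XPO5 and TNRC6A probe 1 in the lower left, and DGCR8 probe 1 was positive in the first and negative in the second.

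The wider pathway was followed through 7 lists of 116 genes with 179 probes tested. None of the 179 passed the adjusted p threshold in limma in either direction (0 of 179, against 0.39% of all probes tested), and at an unadjusted p under 0.05 there were 6 higher and 10 lower (8.94%, against 12.3% of all probes tested). The median log2 fold change over the lists was 0.0003, and 147 of 179 intervals (82.1%, against 77.5%) lay within 2-fold.

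Among the 15 partners of the Microprocessor, all detected, 1 of 30 probes had an unadjusted p under 0.05 (3.33% higher, against 7.35% of all probes tested). It belonged to KHSRP, a KH-domain protein that binds the terminal loop of some precursors and also promotes decay of AU-rich messenger RNA. KHSRP gave intensities of 10024 and 8207 in vec and of 17936 and 20102 in shpkp3-2, and both shpkp3-2 arrays were far above both vec arrays. Its log2 fold change was 1.28 (SE 0.18, 95% interval 0.84 to 1.72, adjusted p = 0.0744 by limma). The adjusted p was 0.00511 with the RNA collection as a block, 0.00837 with normexp background correction, 0.0168 with a trended robust prior and 0.0439 without vec 2. Under the other alternatives it ranged from 0.0732 to 0.423. The second KHSRP probe, far dimmer, had a value of 0.13 (log2; adjusted p = 0.818 by limma). The helicase DDX5 had 0.09, and the lowest of the list was the cap-binding NCBP2 with -0.33 (-0.21 without shpkp3-2 2), whose other probe had 0.24.

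Of 12 genes of precursor export, tailing and editing, 10 had a probe tested. RAN, the GTPase that works with exportin 5, had log2 fold changes of 0.19, 0.15 and -0.11 with its 3 probes. The highest was 1 probe of the exonuclease DIS3L2 at 0.61 (adjusted p = 0.383 by limma), or 0.34 without shpkp3-2 2, and the lowest the editing enzyme ADARB1 at -0.50 (adjusted p = 0.443 by limma), or -0.26 without vec 1. The other DIS3L2 probes had 0.08 and -0.10. LIN28A and LIN28B, which block let-7 maturation, were well above background on no array. Of 24 partners of Dicer and the Argonautes, 22 had a probe tested, and none of their 42 probes had an unadjusted p under 0.05 (against 12.3% of all probes tested). The extremes each rested on 1 array, PNPT1 at 0.55 (0.16 without vec 1, and -0.05 with its brighter probe) and ZSWIM8 at -0.43 (-0.10 without vec 2).

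Downstream of the Argonautes, the list of GW182 paralogs and deadenylases had 0 higher and 3 lower of 35 probes at an unadjusted p under 0.05 (8.57% lower, against 4.98% of all probes tested). The 3 were single probes for subunits of the CCR4-NOT deadenylase, CNOT9 at -0.71 (adjusted p = 0.273 by limma), CNOT6 at -0.56 and CNOT1 at -0.56. Each was the dimmest tested probe of its gene. The other CNOT9 probe had 0.17, the other CNOT6 probes -0.28 and -0.17, and the other CNOT1 probes -0.16 and -0.49 (0.08 and -0.08 without vec 1). For TNRC6C, a paralog of TNRC6A, the value was 0.36 (adjusted p = 0.475 by limma). TNRC6B, the other paralog, had 4 probes tested. One gave 545.6 and 1227 in vec against 1163 and 1282 in shpkp3-2, so that vec 1 alone stood apart. Its log2 fold change of 0.79 (adjusted p = 0.56 by limma) was 0.01 without vec 1 and 1.57 without vec 2 (adjusted p = 0.0326 by limma, and from 0.216 to 1 under the other alternatives). The other 3 TNRC6B probes had 0.09, -0.17 and 0.02. Of 18 probes of the decapping and decay list, 2 were lower at an unadjusted p under 0.05 (11.1%, against 4.98% of all probes tested). They were PATL1 at -0.58 (-0.30 without vec 1) and LSM14A at -0.53 (-0.20 with its other probe), and the highest was EIF4E2 at 0.30 (0.09 without vec 1).

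The germline PIWI pathway, which makes another class of small RNA in the gonads, was mostly undetected. Of its 12 genes, 8 were well above background on no array and 2 had a probe tested, PLD6 at -0.38 (-0.14 without shpkp3-2 2) and PIWIL4 at -0.46 (-0.02 without shpkp3-2 1), with no unadjusted p under 0.05. For both, the collections had opposite signs.

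The genes that host microRNAs were the list with the widest spread, from -1.04 to 0.96 among probes well above background on all 4 arrays. Of its 33 probes tested there were 4 higher (12.1%, against 7.35% of all probes tested) and 5 lower (15.2%, against 4.98%) at an unadjusted p under 0.05. An EVL probe among the higher and an SMC4 probe among the lower entered the test only through the clone where they were higher. AOPEP (listed as C9orf3) had 2 probes with nearly equal values. The first gave 805 and 718 in vec against 1291 and 1146 in shpkp3-2, a log2 fold change of 0.89 (95% interval 0.43 to 1.35, adjusted p = 0.175 by limma). The second gave 906 and 755 in vec against 1413 and 1267 in shpkp3-2, a log2 fold change of 0.91 (95% interval 0.47 to 1.34, adjusted p = 0.154 by limma). AOPEP hosts the miR-23b cluster on its own strand of chromosome 9, and the 3p arms are shown with the seed in capitals.
miR-23b-3p, chr9:95085265-95085287, plus strand: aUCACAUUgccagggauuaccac
miR-27b-3p, chr9:95085505-95085525, plus strand: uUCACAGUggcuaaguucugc
miR-24-3p, chr9:95086064-95086085, plus strand: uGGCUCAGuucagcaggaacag
The level of these microRNAs was not measured.

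One probe of VMP1 (listed as TMEM49), the host of miR-21, had a log2 fold change of 0.96 (95% interval 0.18 to 1.74, adjusted p = 0.327 by limma), and the imprinted non-coding H19, the host of miR-675, had -1.04 (95% interval -1.87 to -0.20, adjusted p = 0.326 by limma). The other VMP1 probe, brighter, had 0.11. Both larger values leaned on 1 array, as VMP1 was 0.54 without vec 2 and H19 was -0.54 without shpkp3-2 1. CTDSP1, the host of miR-26b, had -0.46 with its brighter probe and -0.08 with the dimmer one. EVL, the host of miR-342, had 2 probes with -0.45 and -0.81. Another EVL probe was not well above background on either vec array. By its processed intensity it was at least 1.58-fold higher in shpkp3-2, a log2 bound of 0.66. With normexp background correction its log2 fold change was 0.27, below that bound. One SMC4 probe, not well above background on either shpkp3-2 array, was at least 1.74-fold higher in vec, while the bright SMC4 probe had 0.0003. The dim EVL and SMC4 probes each entered the test only through the clone where they were higher, so no p-value is given for them here. These bounds set the dim clone at the higher of its own value and the lowest intensity that was well above background on each array.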

How the data were processed

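Total RNA of 4 cultures was labeled with Cy3 and hybridized to 1-color Agilent arrays. The authors deposited the output of Agilent Feature Extraction (10.7.3.1 in the file headers, 9.1 in the labels), whose processed intensity is linear, detrended and background-subtracted, with no normalization between arrays. The array design was annotated on hg18, so no probe or gene coordinates are given, and those of microRNAs are RefSeq's (GRCh38.p14). The log2 of this intensity minus the 75th percentile of each array was used, outlier spots were left out and spots of a probe were averaged. A probe was tested where 1 clone or both had it well above background on each array. The fit used the lmFit and eBayes functions of limma (3.58.1, under R 4.3.3), with Benjamini-Hochberg adjustment over 30512 probes. With 2 arrays a clone, the precision is limited by their number. The members and lists were chosen with earlier results of these data known. All members, each list's genes past the test and its highest and lowest gene among probes well above background on all 4 arrays were named. List genes at an unadjusted p under 0.05, related probes and those below background were added after their values were seen. Values are given per probe, numbered from the brightest. The series' design states that RNA with the same number was collected together, which pairs the arrays, and same-numbered deviations had a correlation of -0.199 across probes. Alternatives were normexp (offset 50), quantile normalization, median centring, other filters, the replicate block, a trended robust prior, an unmoderated equal-variance test per probe and leaving out each array.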

Additional observations from a re-analysis of the deposited data

How the results depend on the processing

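No member probe passed the threshold under any of the 14 alternatives. With all 4 arrays kept, between 1 and 4 member probes had an unadjusted p under 0.05. The 1 was by the unmoderated test, beside 2884 of all 30512 probes tested, and the 4 with normexp, beside 3533 of 30512. The replicate block gave 0 member probes, and it added calls for KHSRP and the dim EVL probe in the pathway lists and for CLDN7 and CLDN3 among the markers. The dim EVL probe was tested only through shpkp3-2, where it was higher, so its call is not independent of that filter. The median of the members was between 0.0092 and 0.09 under the other settings and between -0.04 and 0.09 with an array left out. Over all probes the calls numbered 119, and 841 with the replicate block, 602 without vec 2, 257 without vec 1, 74 with quantile normalization, 46 with probes well above background on all arrays, 18 with no filter, 2 with the weaker flag and 0 by the unmoderated test per probe, which had 2884 before adjustment. The crossed pairing, chosen after seeing the data, gave 104 over all probes and 0 among members. In the wider lists, 0 probes were called, 1 with normexp (KHSRP), 2 with the replicate block (KHSRP, EVL) and, among settings added for the lists after seeing the data, 1 with the trended robust prior (KHSRP) and from 0 to 2 with an array left out, the 2 without vec 2 (KHSRP, TNRC6B). Of 172 alternatives for single probes, 163 kept their direction and side and 9 reversed. As the mean with probe 2, DGCR8 probe 1 was 0.33, DICER1 probe 1 was 0.38 and EIF2C4 probe 1 was 0.14. With an array left out, the log2 fold change ranged from -0.12 to 0.27 for DICER1 probe 1, from -0.0014 to 0.16 for EIF2C2, from -0.06 to 0.37 for EIF2C4 probe 1, from -0.0213 to 0.28 for EIF2C4 probe 2, from -0.43 to 0.0703 for DGCR8 probe 1 and from -0.0788 to 0.27 for TARBP2. The cause was not tested.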
